A study of Homo sapiens with 6 samples.

Results

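Keratin transcripts were compared between L3.6pl cells sorted for high and for low surface L1CAM. L1CAM is a cell adhesion molecule of the immunoglobulin family, and L3.6pl is an established human pancreatic cancer line, described by the study as an adenosquamous carcinoma from a lymph node metastasis. Of the 19469 genes with a row in the count table, 10 keratin genes were taken by symbol and split by the epithelium they are known from. The 4 keratins of simple epithelium were KRT7, KRT8, KRT18 and KRT19, and the 6 keratins of stratified epithelium were KRT5, KRT6A, KRT13, KRT15, KRT17 and KRT80. The other 13 keratin genes and the 45 keratin pseudogene rows are given beside them, since some share sequence with the 10.

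The groups were 3 libraries of the L1CAM-positive fraction (L1high) and 3 of the L1CAM-negative fraction (L1low). Both fractions came from the same line, grown in DMEM with fetal bovine serum and with no added agent, and separated by fluorescence-activated sorting with dead cells gated out by 7AAD. A single line stands behind every value, and nothing in the labels says that the libraries came from separate cultures, so the p-values measure the spread between these libraries, which may be technical. The labels spell the line L6.6pl in 1 field and L3.6pl in the titles. The study's own table sets the 3 L1low libraries against L1high replicates 1 and 2 and does not say why L1high replicate 3 is absent. That set of 5 libraries is the main comparison here, and values with all 6 stand beside it. Positive log2 fold changes mean higher in L1low throughout, and CPM is the count of a gene scaled to the size of its library.

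Keratins are the intermediate filament proteins of epithelial cells. A filament forms only from pairs of a type I and a type II keratin, so each cell makes members of both types. Simple epithelia such as the pancreatic duct are known for KRT8 with KRT18, joined by KRT7 and KRT19. The basal layer of stratified epithelia makes KRT5 with KRT14 or KRT15, and wounded or squamous epithelium adds KRT6A with KRT16 or KRT17. Adenosquamous tumors hold both glandular and squamous differentiation. Among the 10 genes, KRT17, KRT13, KRT15, KRT18 and KRT19 are type I, and KRT5, KRT6A, KRT7, KRT8 and KRT80 are type II.

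The libraries held between 16334610 and 21064685 counts. L1CAM, the gene behind the sort, was at 84.0, 69.8 and 89.5 CPM in L1high and at 17.7, 23.7 and 20.0 CPM in L1low, which checks the labels and is no finding. All 5 epithelial markers looked up (EPCAM, CDH1, CLDN4, CLDN7 and ESRP1) had rows, and their sum was 984 to 1030 CPM in L1high and 818 to 841 CPM in L1low, with EPCAM and CLDN7 lower in L1low by the test and, with all 6 libraries, CLDN4 as well (log2 fold change -0.35, adjusted p = 0.021). All 6 basal or squamous markers had rows, with a sum of 5410 to 5480 CPM in L1high and 5610 to 6140 CPM in L1low. They were TP63, KRT5, KRT6A, KRT14, DSG3 and S100A2, of which TP63 and KRT14 rose and KRT6A fell in L1low by the test. KRT5 and KRT6A are among the 10 keratins and KRT14 is a further keratin, so this sum is no separate measure of basal cells. Rows were also present for 4 of the 6 duct markers (KRT7, KRT19, SOX9 and MUC1). Their sum was 2490 to 2790 CPM in L1high and 3150 to 3440 CPM in L1low. Most of the duct sum was KRT7 and KRT19, both among the keratins studied here, so it is no separate measure of duct cells. SOX9 fell in L1low by the test (log2 fold change -1.03, adjusted p = 2.5e-04). None of the 5 acinar and none of the 4 endocrine markers had a row. Of the 8 fibroblast markers only COL3A1, at no more than 2.20 CPM, and LUM had rows. LUM, a matrix proteoglycan, rose from 78.1 to 89.8 CPM in L1high to between 129 and 150 CPM in L1low. PECAM1 was the only endothelial marker and CD68 the only leukocyte marker with a row, at no more than 14.7 and 11.3 CPM. The part of the epithelial markers and of LUM in the keratin values was not tested. In bulk libraries, fewer cells of a type and less RNA per cell cannot be told apart.

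Of the 10 keratins, 3 changed between the fractions, and they did not divide by class. KRT15 and KRT19 rose in L1low, by 1.25 ± 0.09 and 0.69 ± 0.07 on the log2 scale (± SE), whereas KRT6A fell by 0.58 ± 0.07. KRT15 and KRT6A are stratified keratins and KRT19 is a simple one, so 1 of the 4 simple and 2 of the 6 stratified keratins changed, and the stratified pair moved in opposite directions. The quasi-likelihood test of edgeR was used, with p-values adjusted over all genes by Benjamini-Hochberg and a call at an adjusted p under 0.05. It called 7.57% of all genes, of which 4.41% of all genes were higher and 3.15% lower in L1low. Of the 10 keratins, 9 had a mean log2 CPM of 5 or more, and 12.1% of all genes at that level were called. With all 6 libraries, where 7.95% of all genes were called, the same 3 keratins were called. At an unadjusted p under 0.05 the number was 5, but the share of all genes at that threshold was not taken, so this count has no background.

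KRT15, a type I keratin of basal cells that is also known from hair follicle stem cells, was at 44, 44.5 and 50.3 CPM in L1high and at 99.9, 102 and 112 CPM in L1low. Every L1low library was near or above 100 CPM and every L1high library near 50 or below, and the fold was 2.37 over the 5 libraries (adjusted p = 3.9e-06). With all 6 libraries the log2 fold change was 1.18 (adjusted p = 5.9e-06). By CPM, KRT15 was second to last of the 10, with 825 to 1991 counts a library, and its gene lies on the minus strand of chromosome 17 at 41513745 to 41522529 (GRCh38).

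KRT19, the smallest keratin and a standard marker of pancreatic duct cells, was at 869, 827 and 946 CPM in L1high and at 1300, 1370 and 1420 CPM in L1low. The groups did not overlap, and the highest L1high library was L1high replicate 3, the one outside the main comparison. The fold was 1.61 (adjusted p = 6.8e-05), and the log2 fold change with all 6 libraries was 0.63 (adjusted p = 1.4e-04). Its gene lies at 41523617 to 41528308 on the same strand of chromosome 17, with 1087 bases between it and KRT15.

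KRT6A, a type II keratin that epidermis switches on after wounding, was at 820, 786 and 812 CPM in L1high and at 536, 537 and 534 CPM in L1low. The replicates lay very close together in both groups, and the fold was 0.667 (adjusted p = 1.9e-04, with all 6 libraries 5.8e-05 at a log2 fold change of -0.59). Under each alternative analysis run, these 3 keratins kept their call and direction, with log2 fold changes between 1.14 and 1.25 for KRT15, 0.59 and 0.70 for KRT19, and -0.61 and -0.53 for KRT6A.

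The remaining simple keratins did not pass the test. KRT7, a type II keratin of ducts and glands, was at 1620, 1540 and 1720 CPM in L1high and at 1730, 1830 and 1900 CPM in L1low. The groups did not overlap, but L1high replicate 3 reached almost the level of L1low replicate 1, and the log2 fold change was 0.21 ± 0.07 (adjusted p = 0.083). KRT8, the type II partner of KRT18, went the other way, at 969, 926 and 1080 CPM in L1high and at 792, 884 and 866 CPM in L1low. Its log2 fold change was -0.15 ± 0.07 (adjusted p = 0.23), and -0.23 with all 6 libraries (adjusted p = 0.08). Leaving out L1high replicate 2 from the 6 libraries gave -0.27, with a call (adjusted p = 0.046).

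KRT18, at 693, 602 and 758 CPM in L1high and 680, 665 and 686 CPM in L1low, had L1low libraries that lay inside the range of the L1high ones. Its log2 fold change was 0.07 ± 0.08 (adjusted p = 0.60), and its sign turned with all 6 libraries (-0.014). The interval of 1.96 SE around the estimate ran from -0.08 to 0.22, which leaves room for a small change in either direction. For KRT7 the same interval ran from 0.08 to 0.35 and for KRT8 from -0.29 to -0.01. Such intervals are not adjusted over all genes and can leave out 0 without a call. They take 1.96 from the normal distribution, which is too narrow for a quasi-likelihood test on 5 libraries. They can therefore leave out 0 even where the unadjusted p is 0.05 or more, and only 5 of the 10 keratins had one under 0.05.

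Among the remaining stratified keratins, KRT17 was the most abundant gene of the whole table by mean CPM and KRT5 ranked 5. KRT17, a type I keratin of basal cells and skin appendages, was at 6710, 6180 and 7140 CPM in L1high and at 6100, 6270 and 6600 CPM in L1low. The groups overlapped, and the interval of its log2 fold change (-0.018 ± 0.07, adjusted p = 0.90) ran from -0.15 to 0.11. KRT5, the type II keratin of the basal layer, was at 3000, 3010 and 3080 CPM in L1high and at 3170, 3260 and 3420 CPM in L1low. Here the groups did not overlap and the log2 fold change was 0.14 ± 0.06 (adjusted p = 0.23), with an interval from 0.01 to 0.26.

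KRT13, a type I keratin of the upper layers of mucosal epithelium, was at 357, 346 and 370 CPM in L1high and at 391, 386 and 419 CPM in L1low. Its log2 fold change was 0.19 ± 0.07 (adjusted p = 0.14), with an interval from 0.05 to 0.33. KRT80, a type II keratin found in most epithelia late in differentiation, had the lowest counts of the 10, with 69 to 128 a library. It was at 6.03, 4.19 and 4.81 CPM in L1high and at 4.84, 4.51 and 3.9 CPM in L1low, and the interval of its log2 fold change (-0.20 ± 0.21, adjusted p = 0.60) ran from -0.60 to 0.20. The estimate was smaller than its SE, so a change of KRT80 in either direction remains possible. In all, 7 of the 10 keratins had no overlap between the 3 L1high and the 3 L1low libraries, which held for 28.8% of all genes.

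**Figure D1:**
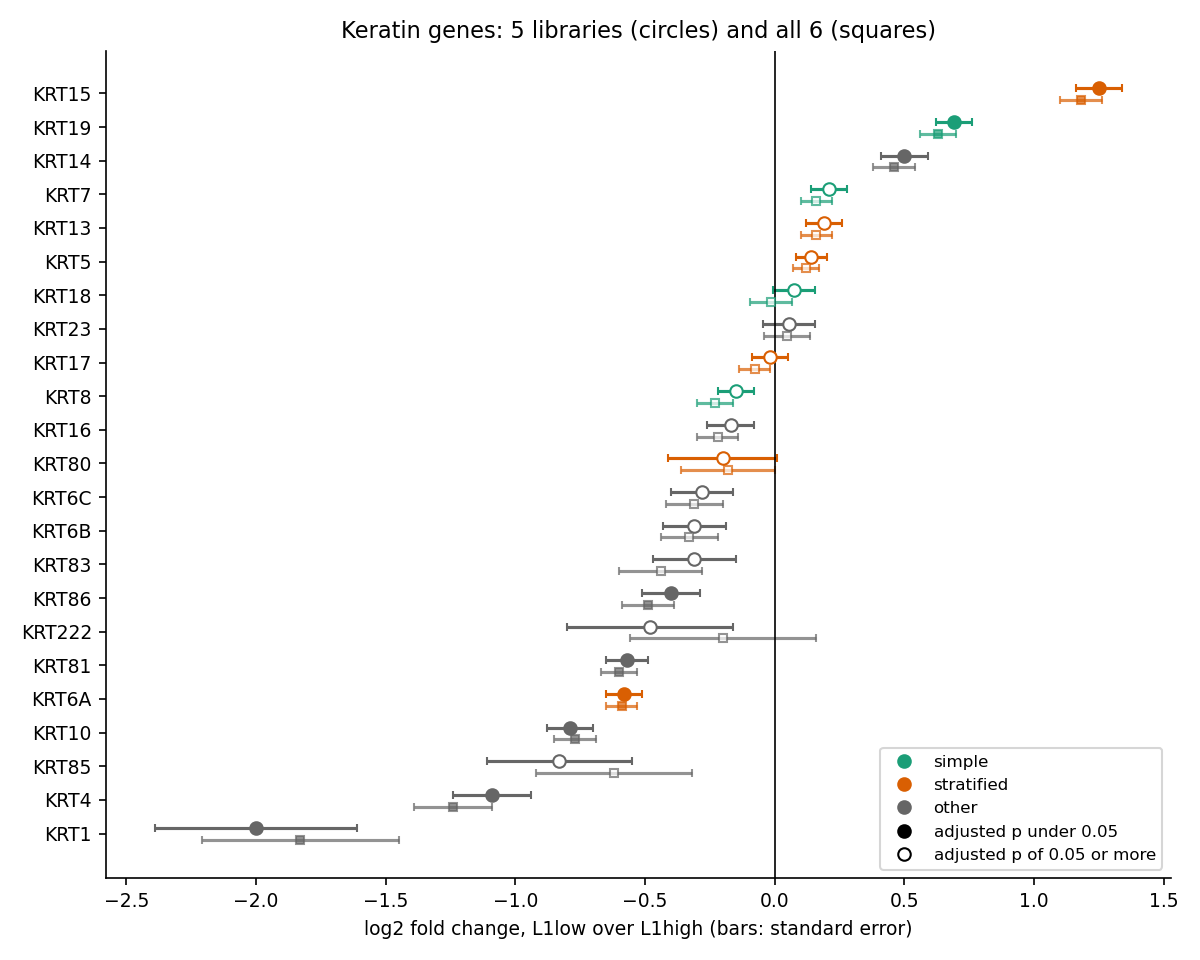
Log2 fold changes of the 23 keratin genes, L1low over L1high, from 5 libraries (circles) and from all 6 (squares), with bars of 1 SE and filled symbols where the adjusted p was under 0.05. Simple keratins are green, stratified ones orange and the other keratin genes grey; KRT15, KRT19 and KRT14 are the filled symbols right of 0, and KRT6A, KRT81, KRT86, KRT10, KRT4 and KRT1 those left of it.

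Levels can be set against each other between genes only per length, so CPM was divided by the length of the reference (MANE Select) transcript to give RPKM, the form of CPM scaled to 1 kilobase of transcript. KRT17 stood above all other keratins in both groups, at a mean of 4400 RPKM in L1high and 4170 RPKM in L1low. KRT5 followed at 1350 and 1470 RPKM, and KRT7 at 999 and 1120 RPKM. These neighbours in the order lay far apart in every library. In L1high, KRT19 (634 RPKM), KRT8 (555 RPKM) and KRT18 (484 RPKM) came next. KRT18 at 536 RPKM in L1high replicate 3 lay above KRT8 at 519 RPKM in L1high replicate 2. Within each L1high library, however, KRT8 was above KRT18, at ratios of 1.11, 1.22 and 1.13. In L1low, KRT19 at 981 RPKM was well above KRT8 (475 RPKM) and KRT18 (479 RPKM), whose ranges overlapped. These levels leave out the pseudogene rows. Those rows held 51.2% to 58.3% as many counts as KRT8, 32.2% to 49.8% as many as KRT18 and 5.20% to 6.65% as many as KRT19. The order of KRT19, KRT8 and KRT18 is therefore uncertain, above all in L1high.

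KRT6A was above KRT13 in L1high, at 349 against 209 RPKM, whereas in L1low they were at 232 and 233 RPKM and their ranges overlapped. KRT15 was at 27.0 RPKM in L1high and 61.3 RPKM in L1low. KRT14, the usual partner of KRT5, was at 46.9 and 64.4 RPKM, and the ranges of KRT14 and KRT15 overlapped in L1low alone. KRT80 was at 1.29 and 1.14 RPKM, above KRT85, KRT1 and KRT222 and below all other keratin genes with a row.

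Summed per length, the 4 simple keratins came to 2650, 2490 and 2880 RPKM in L1high and 2930, 3080 and 3160 RPKM in L1low. The 6 stratified keratins came to 6350, 5990 and 6680 RPKM in L1high and 5960, 6110 and 6420 RPKM in L1low. The stratified sum was thus above the simple sum in each library of both fractions, and the stratified sums of the groups overlapped. The ratio of stratified to simple was 2.39, 2.41 and 2.32 in L1high and 2.04, 1.99 and 2.03 in L1low. It was lower in all 3 L1low libraries, the log2 ratio differing by -0.251 in the 5 libraries and by -0.235 in all 6, and as a sum over chosen genes it carries no p. Most of this rested on 1 gene: without KRT19 the log2 ratio differed by only -0.0833, an alternative chosen after the values were seen.

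**Figure D2:**
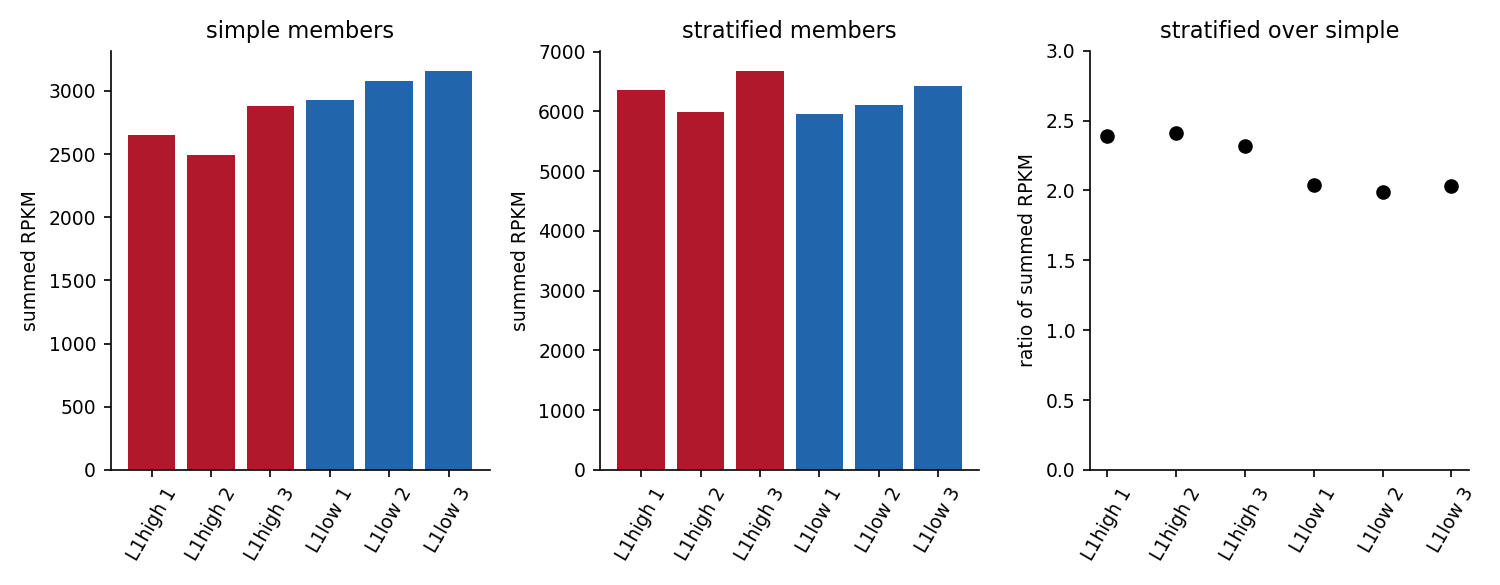
RPKM summed over the 4 simple and over the 6 stratified keratins in each library (bars; red, L1high; blue, L1low), and the ratio of the sums (points). The ratio lies between 2.32 and 2.41 in L1high and between 1.99 and 2.04 in L1low, while the stratified sums overlap.

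Ratios within pairs, again per length, show which keratins moved against each other. KRT7 over KRT19, a type II and a type I keratin of the duct, was 1.59, 1.59 and 1.55 in L1high and 1.14 in each L1low library. KRT19 over KRT8 was 1.15, 1.15 and 1.13 in L1high and 2.10, 2.00 and 2.10 in L1low. KRT8 over KRT18 fell only from 1.15 ± 0.0598 to 0.992 ± 0.0653 (SD, n = 3). These ratios, which leave out the pseudogene rows, show that the simple keratins did not move as a block.

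Among the stratified pairs, KRT5 over KRT15 was 52.1, 51.7 and 46.8 in L1high and 24.3, 24.4 and 23.2 in L1low. KRT6A over KRT5 was 0.265, 0.253 and 0.256 in L1high and 0.164, 0.159 and 0.151 in L1low. KRT6A over its partner KRT17 was 0.0796 ± 0.00449 and 0.0557 ± 0.00238. In each of these pairs the groups lay apart by far more than the spread between libraries. Type I over type II, summed over all 23 keratin genes, was 1.63 ± 0.0583 in L1high and 1.71 ± 0.0203 in L1low, and the 10 keratins took between 1.43% and 1.60% of all counts.

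Of the other 13 keratin genes, 6 changed, 1 upward and 5 downward, beside 4.41% of all genes upward and 3.15% downward, and the count was 6 with all 6 libraries too. KRT14, the type I keratin of the basal layer, rose from 78.7, 71.1 and 80.4 CPM in L1high to 99.0, 107 and 110 CPM in L1low (log2 fold change 0.50 ± 0.09, adjusted p = 0.0034). It thus moved the same way as KRT15, the other type I partner of KRT5. KRT15 over KRT14 per length was 0.534, 0.598 and 0.597 in L1high and 0.965, 0.915 and 0.974 in L1low.

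The 5 that fell in L1low were KRT10, KRT1, KRT4, KRT81 and KRT86. KRT10, the type I keratin of differentiating epidermis, was at 81.1, 97.0 and 84.3 CPM in L1high and at 49.2, 52.0 and 52.5 CPM in L1low (log2 fold change -0.79 ± 0.09, adjusted p = 2.1e-04). KRT1, its type II partner, was nearly absent, with 46, 33 and 19 counts in L1high and 5, 12 and 8 in L1low. Its log2 fold change of -2.00 ± 0.39 (adjusted p = 0.0083) lost the call without L1high replicate 1 (-1.57, adjusted p = 0.079). KRT4, the type II partner of KRT13 in mucosa, was at 12.2, 13.4 and 16.8 CPM in L1high and at 5.39, 5.96 and 6.55 CPM in L1low (log2 fold change -1.09 ± 0.15, adjusted p = 5.8e-04). KRT13 itself, at 0.19, did not follow KRT4.

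KRT81 and KRT86 are hair keratins, and KRT81 was the most abundant keratin outside the 10. KRT81 was at 503, 445 and 498 CPM in L1high and at 300, 321 and 330 CPM in L1low (log2 fold change -0.57 ± 0.08, adjusted p = 7.1e-04). KRT86 was at 32.4, 28.9 and 36.1 CPM in L1high and at 23.0, 22.1 and 24.4 CPM in L1low (-0.40 ± 0.11, adjusted p = 0.04). The call of KRT86 was lost without L1high replicate 1 (adjusted p = 0.066) and without L1low replicate 2 (adjusted p = 0.088), and the gene is uncertain for another reason given with the shared sequences.

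The 7 keratin genes that did not pass the test were KRT6B, KRT6C, KRT16, KRT23, KRT83, KRT85 and KRT222. KRT6B and KRT6C, the paralogs of KRT6A, had log2 fold changes of -0.31 and -0.28, and KRT16, the partner of KRT6A in wounded epithelium, -0.17. KRT83 and KRT85, both hair keratins, were at -0.31 and -0.83, KRT23 at 0.05 and KRT222 at -0.48, the last with 10 to 36 counts a library. Without L1high replicate 2, KRT83 was called at -0.63 (adjusted p = 0.0075) and KRT16 at -0.28 (adjusted p = 0.044). By type, 2 of the 13 type II genes and 6 of the 10 type I genes had a positive log2 fold change. Their medians were -0.31 and 0.064, beside 0.0016 over all genes tested.

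The keratin genes lie in a cluster on chromosome 12, which holds the type II genes and KRT18, and a cluster of type I genes on chromosome 17. The 3 type I genes that rose, KRT15, KRT19 and KRT14, are on the minus strand of chromosome 17. Between KRT15 and KRT19 lie 1087 bases, and between KRT19 and KRT14 lie 53970. KRT13 lies 8039 bases from KRT15 on the other side and had a log2 fold change of 0.19. KRT16 and KRT17, at the far side of KRT14, were at -0.17 and -0.018, and KRT16 is only 22882 bases from KRT14. KRT10, 163.5 kb from the first type I gene with a row, fell. On chromosome 12, KRT6A at -0.58 is next to KRT5 at 0.14, with 21317 bases between them, so neighbours differed there as well.

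**Figure D3:**
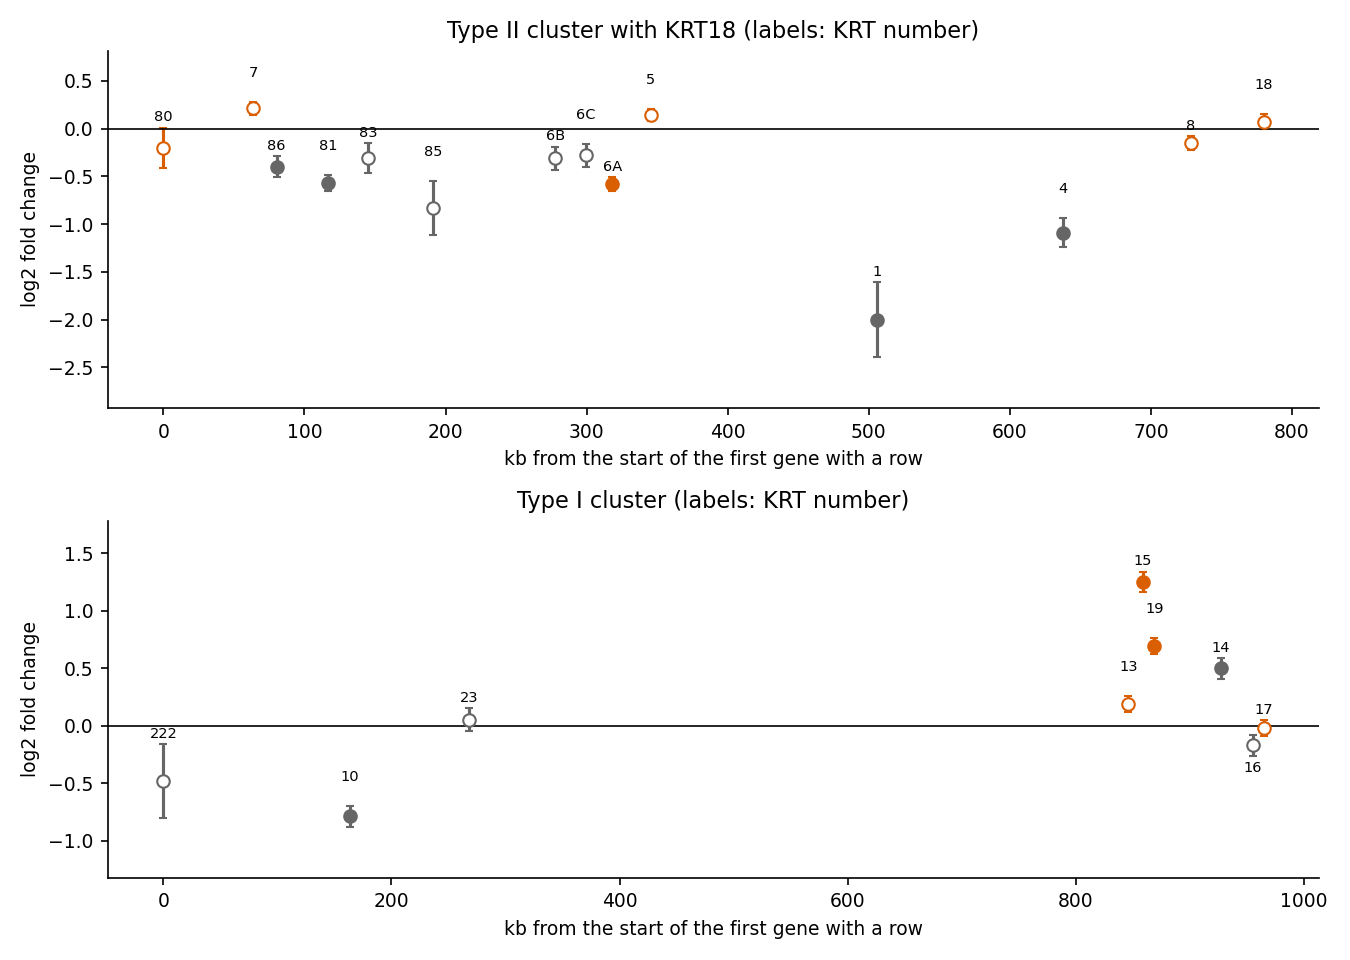
Log2 fold change (5 libraries, bars of 1 SE) of each keratin gene against its distance in kb from the first keratin gene with a row, for the cluster of type II genes with KRT18 (top) and the cluster of type I genes (bottom). Orange symbols are the 10 keratins, grey ones the other keratin genes, and filled symbols passed the test. KRT15, KRT19 and KRT14 are the filled symbols above 0, whereas KRT6A and KRT5 lie side by side on either side of 0.

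Several of these genes share sequence with near-identical copies, which limits how surely reads can be given to 1 gene. Of the 75-base windows of the KRT6A transcript, 26.2% occur letter for letter in another keratin locus, mostly KRT6C and KRT6B. The share was 18.8% for KRT8, 6.50% for KRT18, 3.12% for KRT17 and 2.77% for KRT5. It was 0 for KRT7, KRT13, KRT15, KRT19 and KRT80. Both keratins that rose among the 10 are thus without such windows, and the one that fell has the most. A share of 0 covers exact matches alone, and KRT19 still has the 2 pseudogene rows given below. The stretches of 60 bases below, each at the centre of the longest coding exon after the first, show how close the copies are (GENCODE 44, GRCh38, all printed in the sense of the gene). Capitals mark bases that differ from the first sequence of a set.

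For KRT6A (chr12:52487810-52487869, minus strand, from codon 516), KRT6C differs at 1 base and KRT6B at 4, and KRT5 at 23.
KRT6A: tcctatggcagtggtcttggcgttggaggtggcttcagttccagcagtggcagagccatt
KRT6C: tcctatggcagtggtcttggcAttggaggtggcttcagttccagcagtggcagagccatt
KRT6B: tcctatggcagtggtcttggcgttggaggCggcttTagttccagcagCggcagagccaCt
KRT5: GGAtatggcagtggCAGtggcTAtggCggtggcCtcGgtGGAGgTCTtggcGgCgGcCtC

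KRT6A, KRT6B and KRT6C were summed to 1 row for this reason, and the sum had a log2 fold change of -0.53 (adjusted p = 4.0e-04). The counts of KRT6B and KRT6C were small beside those of KRT6A, at 883 to 1609 and 999 to 1827 a library against 9448 to 17397. KRT6B and KRT6C each had lower CPM in all 3 L1low libraries than in any L1high library, the same side as KRT6A.

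For KRT17 (chr17:41620742-41620801, minus strand, from codon 347), the related genes KRT14 and KRT16 and the pseudogene KRT17P3 (chr17:30567969-30568028, minus strand) are shown, since KRT14 rose while KRT17 did not.
KRT17: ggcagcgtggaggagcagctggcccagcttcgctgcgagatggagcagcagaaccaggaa
KRT14: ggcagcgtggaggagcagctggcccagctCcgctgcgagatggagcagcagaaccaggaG
KRT16: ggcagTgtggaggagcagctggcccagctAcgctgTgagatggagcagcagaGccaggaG
KRT17P3: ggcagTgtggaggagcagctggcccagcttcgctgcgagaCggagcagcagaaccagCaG

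KRT14 is 96.7%, KRT17P3 93.3% and KRT16 91.7% identical to KRT17 over this stretch. The 4 KRT17 pseudogene rows together held between 6.03% and 7.48% of the counts of KRT17. KRT17P3, the largest of them, was at 225, 244 and 216 CPM in L1high and at 211, 263 and 269 CPM in L1low (log2 fold change 0.089, adjusted p = 0.64). Added to KRT17, these rows left its log2 fold change at -0.014.

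For KRT19 (chr17:41523842-41523901, minus strand, from codon 349), the 2 pseudogenes KRT19P1 (chr6:71585750-71585809, plus strand) and KRT19P2 (chr12:94835018-94835077, plus strand) and its neighbour KRT15 are shown, as these are the rows that rose.
KRT19: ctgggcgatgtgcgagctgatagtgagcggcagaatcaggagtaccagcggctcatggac
KRT19P1: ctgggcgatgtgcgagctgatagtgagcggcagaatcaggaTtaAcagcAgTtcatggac
KRT19P2: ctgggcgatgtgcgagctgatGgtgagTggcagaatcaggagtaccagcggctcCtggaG
KRT15: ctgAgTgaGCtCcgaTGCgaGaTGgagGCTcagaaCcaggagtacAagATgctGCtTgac

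Both pseudogenes are 93.3% identical to KRT19 over this stretch, whereas KRT15, at 65.0%, is a distinct gene. KRT19P1 rose from 46.8, 39.9 and 52.9 CPM in L1high to 80.7, 78.6 and 68.8 CPM in L1low (log2 fold change 0.82 ± 0.10, adjusted p = 4.0e-04). KRT19P2 rose from 3.82, 3.12 and 1.83 CPM to 5.45, 9.58 and 8.87 CPM (1.21 ± 0.24, adjusted p = 0.0092). The 2 rows together held 5.20% to 6.65% of the counts of KRT19, which itself rose by 0.69. Whether these reads came from the pseudogenes or from KRT19 was not tested. Adding them to KRT19 gave 0.70 (adjusted p = 5.2e-05).

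KRT8 and KRT18 carried the largest pseudogene load of the 10. For KRT8 (chr12:52899892-52899951, minus strand, from codon 269), the pseudogene KRT8P33 (chr5:123401479-123401538, minus strand), 1 of its copies, is 91.7% identical.
KRT8: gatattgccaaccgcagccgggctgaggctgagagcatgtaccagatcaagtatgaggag
KRT8P33: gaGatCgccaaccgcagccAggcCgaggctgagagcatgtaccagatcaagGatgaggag

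The 15 KRT8 pseudogene rows together held 51.2% to 58.3% as many counts as KRT8, and the 17 rows of KRT18 held 32.2% to 49.8% as many as KRT18. None of these rows passed the test, where 7.57% of all genes did. KRT8P3 alone, the pseudogene row with the most counts, was at 350, 305 and 346 CPM in L1high and at 291, 277 and 299 CPM in L1low (log2 fold change -0.17, adjusted p = 0.21), close to the -0.15 of KRT8. With pseudogene rows added, KRT8 was at -0.16 (adjusted p = 0.17) and KRT18 at 0.052 (adjusted p = 0.70).

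Only 1 further pseudogene row passed the test, so that 3 of the 45 were called in all, beside 7.57% of all genes. KRT16P6, at 2.55, 2.14 and 3.53 CPM in L1high and 4.35, 5.18 and 4.18 CPM in L1low, had a log2 fold change of 0.97, but it kept its call under none of 5 fits that left out L1high replicate 1 or 2 or 1 of the L1low libraries. The 5 KRT16 pseudogene rows together held 83.9% to 105% of the counts of KRT16 itself, so KRT16 is uncertain.

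Genes that overlap are a second limit, since the strand setting of the counting is not given in the sources used here. KRT8 and KRT18 overlap by 1084 bases on opposite strands. KRT86 spans the whole of KRT81 on the opposite strand and overlaps the end of KRT7, and 30.3% of the 75-base windows of KRT86 occur in other keratin loci, mostly in KRT81. KRT7-AS, an antisense transcript inside KRT7, was at 332, 279 and 368 CPM in L1high and at 368, 384 and 368 CPM in L1low. Its log2 fold change was 0.30 (adjusted p = 0.048), and 0.20 with all 6 libraries (adjusted p = 0.21). Without strand, its reads and those of KRT7 could not be told apart.

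Keratin filaments are tied to desmosomes and to other filaments by plakins and plaque proteins, and 3 of the 16 linker genes changed, where 7.57% of all genes did. With all 6 libraries the count was 4, since DSC3, a desmosomal cadherin, was called at 0.29. PPL (periplakin) rose from 130, 117 and 143 CPM in L1high to 236, 253 and 247 CPM in L1low (log2 fold change 1.0 ± 0.08, adjusted p = 9.7e-06). PLEC (plectin), which links filaments to hemidesmosomes, rose by 0.63 ± 0.11 (adjusted p = 0.0033), a call lost without L1high replicate 1 (adjusted p = 0.057) and without L1low replicate 2 (adjusted p = 0.11). DSP (desmoplakin), the main anchor of keratins at desmosomes, fell from 565, 529 and 592 CPM to 421, 427 and 445 CPM (-0.34 ± 0.07, adjusted p = 0.012). JUP (plakoglobin), the most abundant of the list, had a log2 fold change of 0.14. The median of the list was 0.11, beside 0.0016 over all genes.

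Of the 19 measured transcription factors known to act on keratin genes, 7 changed, beside 7.57% of all genes and 12.1% of the genes with a mean log2 CPM of 5 or more. TP63, the master regulator of basal and squamous epithelium, was at 314, 301 and 283 CPM in L1high and at 667, 668 and 614 CPM in L1low (log2 fold change 1.09 ± 0.08, adjusted p = 3.9e-06). Its L1low values were thus far above every L1high value, on the side of KRT15, KRT14 and KRT19 and away from KRT6A. KRT5 at 0.14 and KRT17 at -0.018 were not called, and any part of TP63 in the keratin values was not tested. GRHL3, a factor of epidermal barrier formation, fell by 1.14 ± 0.15 (adjusted p = 6.0e-04), and SOX9, a factor of duct cells, fell by 1.03 ± 0.12 (adjusted p = 2.5e-04). CEBPA, which acts in differentiating layers, fell by 0.60 ± 0.14 (adjusted p = 0.018), a call lost without L1high replicate 1 (adjusted p = 0.054). RARG, FOSL2 and SP1 rose by 0.52, 0.39 and 0.30, and JUNB, the most abundant of the list, was at 0.32 (adjusted p = 0.057). GRHL2, FOXA2 and HNF4A had no row analysed here.

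**Figure D4:**
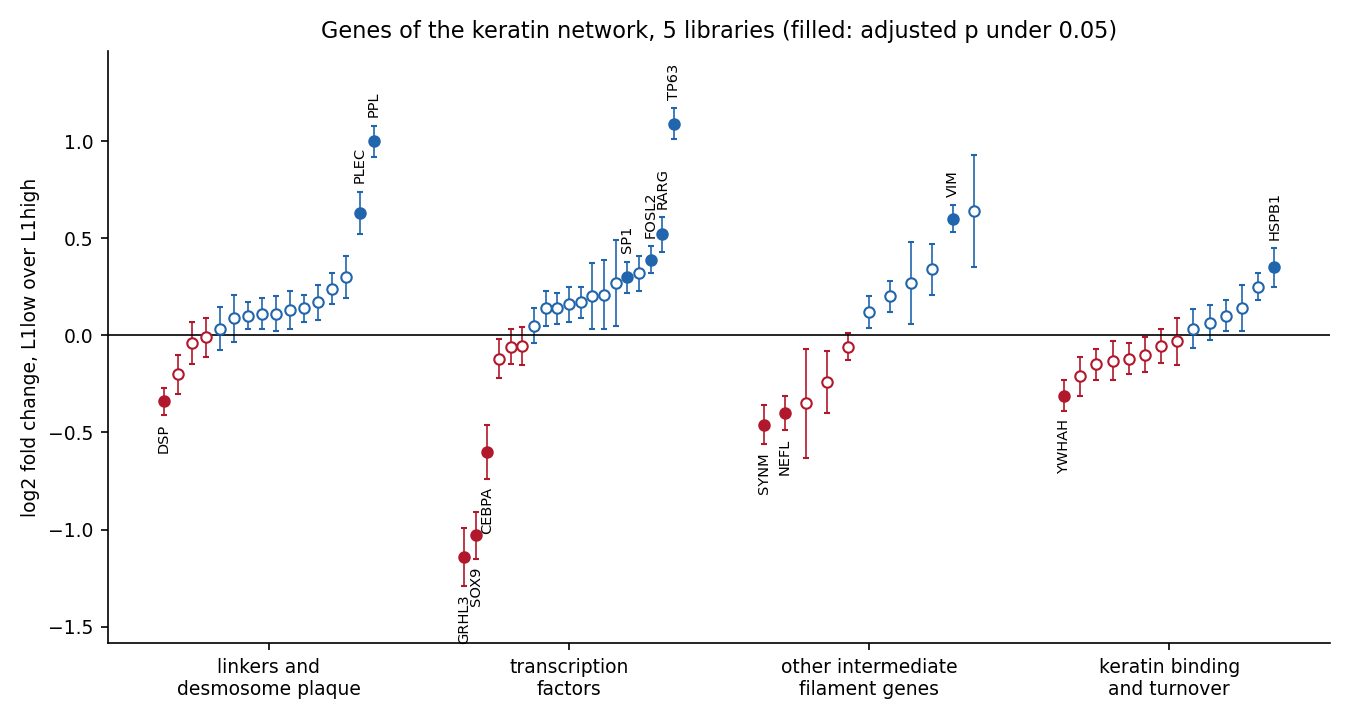
Log2 fold changes (5 libraries, bars of 1 SE) of measured genes from 4 lists around the keratins, ordered by value within each list; blue is positive, red negative, and filled, named symbols passed the test. PPL at 1.0 and TP63 at 1.09 are the largest positive values that passed, and GRHL3 at -1.14 and SOX9 at -1.03 the largest negative ones.

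Among the 11 measured genes of other intermediate filaments, VIM (vimentin), the filament of mesenchymal cells, rose from 361, 377 and 373 CPM to 553, 547 and 565 CPM (log2 fold change 0.60 ± 0.07, adjusted p = 2.0e-04). NEFL, a neurofilament gene, fell by 0.40 (adjusted p = 0.015). SYNM (synemin) fell by 0.46 (adjusted p = 0.019), a call lost without L1high replicate 1 (adjusted p = 0.06) and without L1low replicate 2 (adjusted p = 0.057). LMNA, the lamin gene and most abundant of the list, was at 0.20 (adjusted p = 0.14).

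Among the genes for proteins that bind keratins or take part in their turnover, HSPB1, a small heat shock protein, had a log2 fold change of 0.35 (adjusted p = 0.042), and YWHAH, a 14-3-3 protein, of -0.31 (adjusted p = 0.035). HSPB1 was no longer called with all 6 libraries (adjusted p = 0.055). Both HSPB1 and YWHAH lost their call without each library in turn other than L1high replicate 3. YWHAZ, the most abundant of this list, was at -0.13 (adjusted p = 0.50).

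The genes whose log2 CPM followed the summed keratins most closely over the 6 libraries were found among 12630 genes whose mean log2 CPM was 3 or more. For the 6 stratified keratins these were SCO2 (Pearson r = 0.998), ACADVL (r = 0.996) and CLPP (r = 0.995), all known as genes of mitochondrial proteins. For the 4 simple keratins they were SLC39A7 (r = 0.998), ILRUN (r = 0.996) and USP4 (r = 0.994). The 6 points share their library depth and scaling, and the highest of many correlations is large by selection. None of the 6 genes was called between the fractions.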

How the data were processed

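RNA of the sorted fractions was sequenced from stranded, poly(A)-selected libraries as paired-end reads. The authors aligned the reads to GRCh38 with BWA, which does not split reads across introns, and counted them per Ensembl 94 gene with featureCounts. The deposited values are raw counts per gene. Versions, the strand setting and the treatment of reads with several matches are not given in the sources used here. Of 19469 identifiers, 19344 matched GENCODE 44, from which symbols, positions and transcript lengths were taken.

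Counts were tested with edgeR 4.0.16 in R 4.3.3 (TMM scaling, filterByExpr, glmQLFit and glmQLFTest, Benjamini-Hochberg adjustment over all genes), with an adjusted p threshold of 0.05 and SE as the log2 fold change divided by the square root of F. The 5 libraries of the study's own table formed the main fit. The scripts were tested on simulated data. CPM used TMM factors over all 6 libraries, with a prior count of 2 on the log2 scale. No pair of libraries agreed within sampling noise. Alternatives were all 6 libraries, each library left out, a replicate block, DESeq2 1.42.0, other scalings and filters, and merged copies.

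The members and gene lists were chosen with earlier results of these data known. Text names the 10 keratins, all other keratin genes, called or largest pseudogene rows (for KRT18 the sum only), up to 4 called genes of each list by size with its most abundant gene, and the 3 genes most similar to each summed class. RARG, FOSL2, SP1 and the marker genes are named beyond that rule. Depth ranged from 16334610 to 21064685 counts. A few results on listed genes are not reported here.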

Additional observations from a re-analysis of the deposited data

How the results depend on the processing

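Same-numbered L1high and L1low libraries had correlations of their deviations of 0.074, 0.091 and 0.21, so the numbers were not taken to pair them, although each library correlated best with its own number. With the replicate block, 14 keratin gene and pseudogene rows outside the 10 members were called in the 5 libraries and 15 in all 6, against 9 without it. The block called 1799 genes in all in the 5 libraries, against 1473 without it, and 2363 in all 6, against 1548 without it. It kept 3 members called in the 5 libraries and 4 in all 6, where KRT8 was at -0.22 (adjusted p = 0.034). KRT6B and KRT6C, uncalled without the block, were called with it in the 5 libraries, at -0.38 each (adjusted p = 0.015 and 0.011).

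Leaving out 1 library gave between 627 (without L1low replicate 2) and 1473 called genes, with 674 without L1high replicate 1, and the cause was not tested. The difference in the log2 ratio of stratified to simple keratins lay between -0.251 and -0.223 with 1 library left out, at -0.197 without KRT17, at -0.204 with pseudogene counts added, and at -0.338 with exon-union lengths. It was -0.0833 without KRT19. The last 2 were chosen after seeing the data, and the cause of these shifts was not tested.

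The sign turned for KRT18, which was at -0.014 in all 6 libraries, at -0.0082 there with the replicate block, and between -0.10 and 0.074 with 1 library left out. With 1 library left out, KRT222 lay between -0.48 and 0.16 (without L1high replicate 2) and YWHAZ between -0.13 and 0.10 (without L1high replicate 2; 0.079 without L1low replicate 3), all 3 genes being uncalled. DESeq2 gave KRT1 no adjusted p. Of 659 log2 fold changes of 47 genes under an alternative, leaving aside the one that repeats the 5 libraries, 591 kept their sign and call, 44 lost a call, 14 gained one and 10 turned sign.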
